A study of Mus musculus with 6 samples.

Results

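Steroid hormones are made from cholesterol in a chain of enzyme steps. The protein Star carries cholesterol into mitochondria, Cyp11a1 cuts its side chain to give pregnenolone, and Hsd3b1 turns pregnenolone into progesterone. In the ovary, theca cells make androgens with Cyp17a1 and granulosa cells turn them into oestrogens with Cyp19a1 and Hsd17b1, while the corpus luteum makes progesterone, which Akr1c18 inactivates. The genes described here are 10 of this chain, listed by name: Star, Cyp11a1, Hsd3b1, Cyp17a1, Cyp19a1, Hsd17b1, Hsd17b7, Akr1c18, Akr1cl and Srd5a1. They were matched by symbol to the probes of an array with 17742 named genes. Of the 10, 7 had a named probe, with 8 probes in all, and 3 (Cyp11a1, Cyp17a1 and Cyp19a1) had none under their symbols or RefSeq synonyms and were not analysed here.

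The study used 6 arrays of Cy5-labelled, amplified RNA, all from female BALB/c mice. By label, brain, ovary and uterus were each taken from mice without treatment (mock) and from mice dosed orally with SHT (Sheng-Hua-Tang), a decoction of herbs, at 200 mg/kg over 7 days. The labels give no age, and they do not say whether an array held 1 mouse or a pool. There was 1 array in each of the 6 groups, so no value has a replicate error and precision is limited by how few arrays there are. Values are linear intensities as deposited, with array medians between 179 and 224 and a top of scale near 65000. An intensity is called above background where it exceeded the 95th percentile of 529 genes for olfactory receptors on the same array (275 to 541).

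Tissue markers went against the labels of 4 arrays: “SHT brain”, “mock ovary”, “SHT ovary” and “mock uterus”. They did not settle the label of “SHT uterus”, where the uterus marker sum of 25193 stood beside a squamous epithelium sum of 224195. All 8 oocyte markers were above background on “SHT brain” and “mock uterus” and 1 of 8 on each of the others. Their summed intensity was 24846 and 44739.8 on those 2 arrays and 1079 to 1325 elsewhere. That of 6 granulosa markers was 36321 and 57895 against 1228 to 4517. Of these 6, 5 were above background on each of those 2 arrays and 1 or 2 on each of the others. Inha (19107 and 29563) and Foxl2 (12312 and 21556) made up most of the 2 high sums, and Amh was inside background on every array. The 6 brain markers summed to 149502 and 149739 on “mock brain” and “SHT ovary” and to 677 to 5125 elsewhere. The 8 squamous epithelium markers summed to 372538 and 224195 on “mock ovary” and “SHT uterus” and to 1861 to 4653 elsewhere. The 7 uterus markers summed to 15006 and 25193 on the latter 2 arrays, but also to 25211 on “SHT brain”. There Prap1 alone read 18288, against 3669 and 3735 on “mock ovary” and “SHT uterus”. Hoxa10 read 1163 on “SHT brain” against 2805 and 6642 on those arrays. Each array is therefore called by its label in quotation marks, which is a name only. None was moved, and no difference below is credited to tissue or treatment. In bulk RNA, fewer cells of a type and less RNA per cell cannot be told apart.

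Star, Hsd3b1, Hsd17b1, Akr1c18 and Akr1cl were high on “SHT brain” and “mock uterus”, the 2 with the oocyte and granulosa markers, and far lower on the other 4, where Akr1c18 alone of these stayed above background. Hsd17b7 was high on “mock uterus” alone, and Srd5a1 was inside background on every array. Of the 7 measured genes, 4 were above background on exactly the first 2 arrays, as were 2.12% of all 17742 genes. Other markers were high on the same 2 arrays. The 3 oviduct markers summed to 27144 and 34996 there and to 152 to 618 elsewhere. Of the 3 measured luteal and theca markers, Ptgfr read 1766 and 2852 there and at most 254 elsewhere. Sfrp4 read 11004 and 17832 there, but also 7577 and 5755 on “mock ovary” and “SHT uterus”. Parm1 ran the other way, with 986 and 1520 there and 10300 and 12728 on “mock brain” and “SHT ovary”. The part of cell makeup in these levels was not tested.

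Star was measured by 2 probes. The brighter probe read 9160.0 on “SHT brain” and 10428 on “mock uterus”, against 36.3, 33.3, 31.6 and 78.3 on “mock brain”, “mock ovary”, “SHT ovary” and “SHT uterus”. The dimmer probe read 1299.8 and 1995 on the first 2 arrays and 39.8, 31.4, 37.6 and 44.9 on the others in the same order. Both probes thus placed Star on the same 2 arrays, with no overlap with the other 4. The brighter probe stands for Star below.

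Hsd3b1, which makes progesterone, read 40566 on “SHT brain” and 51780 on “mock uterus”. It read 101, 84.4, 76.2 and 65.3 on “mock brain”, “mock ovary”, “SHT ovary” and “SHT uterus”, all inside background. Mice have further, closely similar Hsd3b genes. None of Hsd3b2 to Hsd3b6 had a named probe, and whether the Hsd3b1 probe tells them apart was not tested.

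Hsd17b1 and Hsd17b7 both reduce oestrone to oestradiol, and their levels ran differently. Hsd17b1, the granulosa cell enzyme, read 16769 on “SHT brain” and 19134 on “mock uterus”. On “mock brain”, “mock ovary”, “SHT ovary” and “SHT uterus” it read 69.6, 79.7, 67.9 and 136. Hsd17b7, which in rodents is known from the corpus luteum and which also reduces a sterol intermediate in cholesterol synthesis, read 12272 on “mock uterus”. Its level was 1923 on “SHT brain” and 2009.7, 2297, 1907 and 2567 on “mock brain”, “mock ovary”, “SHT ovary” and “SHT uterus”. Hsd17b7 was therefore above background on all 6 arrays, with 5 of them close together and 1 apart. Srd5a1, which reduces testosterone and progesterone at the 5-alpha position, read 127, 175 and 217 on “mock brain”, “mock ovary” and “mock uterus”, and 186, 104 and 289 on “SHT brain”, “SHT ovary” and “SHT uterus”. Each of these lay inside background, so no order is read from them.

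Akr1c18, the 20-alpha-hydroxysteroid dehydrogenase that inactivates progesterone in the mouse, read 44639.8 on “SHT brain” and 49969.8 on “mock uterus”. It also stayed above background elsewhere, with 629.7 and 786 on “mock brain” and “SHT ovary” and 360.3 and 347 on “mock ovary” and “SHT uterus”. The background limits of these arrays were 541, 403, 312 and 318 in that order, so all but the reading on “SHT ovary” lay close to the limit. Akr1cl, a gene of the same aldo-keto reductase family, read 23595 and 25657 on the first 2 arrays. It read 123, 285, 114 and 153 on “mock brain”, “mock ovary”, “SHT ovary” and “SHT uterus”. Akr1c18 and Akr1cl thus shared their 2 high arrays, while the remaining levels of Akr1cl were inside background.

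**Figure D1:**
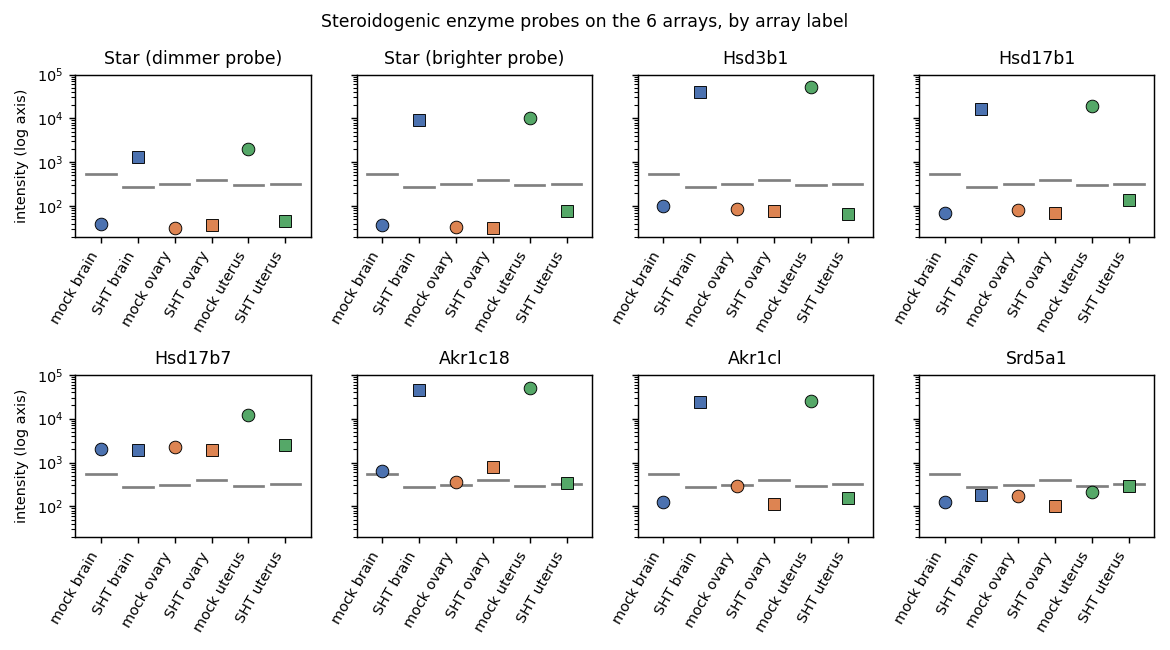
Intensity (log axis) of the 8 probes of the 7 measured genes on the 6 arrays, named by label. Circles are mock arrays, squares are SHT arrays, colours give the labelled tissue, and the grey line marks that array's background limit (95th percentile of olfactory receptors). Hsd3b1 reads 40566 and 51780 on “SHT brain” and “mock uterus” and at most 101 elsewhere, while Hsd17b7 stands apart on 1 array (12272).

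Sequence upstream of the start site is shown for 4 of these genes, because 3 of them (Hsd3b1, Akr1c18 and Akr1cl) were high on the same 2 arrays and the fourth, Hsd17b7, was not. RefSeq windows of the build GRCm38.p6 matched 7 of the 10 genes, with 10 windows, and Star, Cyp17a1 and Hsd17b1 had none. Each window holds the 250 bases before a start site, written along the gene's strand. All 4 genes lie on the minus strand, with Hsd3b1 at chr3:98859795-98860044, Akr1c18 at chr13:4150647-4150896, Akr1cl at chr1:65032760-65033009 and Hsd17b7 at chr1:169969206-169969455. Capitals mark matches, on either strand, to the motifs named after the sequences.
Hsd3b1: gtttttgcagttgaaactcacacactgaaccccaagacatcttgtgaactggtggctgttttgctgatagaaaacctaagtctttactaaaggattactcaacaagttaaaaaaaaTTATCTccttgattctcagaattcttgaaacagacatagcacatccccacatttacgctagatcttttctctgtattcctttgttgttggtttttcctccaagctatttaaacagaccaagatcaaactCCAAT
Akr1c18: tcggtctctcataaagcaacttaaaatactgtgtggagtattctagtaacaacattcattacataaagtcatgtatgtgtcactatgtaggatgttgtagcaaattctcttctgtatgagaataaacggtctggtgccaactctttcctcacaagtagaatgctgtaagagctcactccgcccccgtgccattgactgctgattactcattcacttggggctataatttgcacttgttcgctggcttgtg
Akr1cl: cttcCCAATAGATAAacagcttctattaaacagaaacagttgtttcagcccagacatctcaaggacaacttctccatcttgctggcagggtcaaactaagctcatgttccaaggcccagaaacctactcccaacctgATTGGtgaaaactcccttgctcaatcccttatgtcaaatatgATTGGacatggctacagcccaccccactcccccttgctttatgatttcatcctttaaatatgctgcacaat
Hsd17b7: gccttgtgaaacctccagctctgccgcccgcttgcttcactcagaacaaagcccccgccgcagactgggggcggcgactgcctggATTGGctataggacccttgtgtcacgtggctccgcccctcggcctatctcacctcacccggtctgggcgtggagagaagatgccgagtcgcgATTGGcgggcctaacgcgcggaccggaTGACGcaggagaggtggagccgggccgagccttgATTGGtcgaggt

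The element AAGGTCA, bound by the steroidogenic factors Nr5a1 and Nr5a2, was in none of the 10 windows, and 4.08% of 32851 windows of all genes held it. The GATA motif AGATAA was in the windows of Hsd3b1 and Akr1cl (9.99% of all windows), and TGATAA was in none of the 10 (7.94%). CGTCA, the core of the cAMP response element, was in the Hsd17b7 window and in 1 of 2 Cyp11a1 windows (17.8% of all windows), and TATAAA was in 2 of 3 Cyp19a1 windows (12.4%). CCAAT, looked for after the sequences were seen, was in 6 of the 10 windows and 33.85% of all. It occurred 3 times in the window of Hsd17b7 and 3 times in that of Akr1cl, a number that 2.79% of all windows reached. The Akr1c18 window held none of these motifs. A match describes letters only, and the motifs did not set apart the 3 genes that shared their high arrays.

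The first comparison of the design is SHT against mock in the pair labelled brain. Star, Hsd3b1, Hsd17b1, Akr1c18 and Akr1cl were at least 2-fold higher on “SHT brain” than on “mock brain”. These were 5 of the 6 members above the level floor, the median pair mean over all probes. None was lower, against backgrounds of 22% higher and 24% lower among 10746 genes. Differences are given relative to the median gene, which stood at -0.12 on the log2 scale. Where the dimmer array lay inside background, the fold is a lower bound taken against that array's 95th percentile. Hsd17b1 was at least 33.6-fold higher, Akr1cl at least 47.3-fold and Akr1c18, above background on both arrays, 76.9-fold. The Akr1c18 reading on “mock brain”, 629.7, lay close to the limit of 541 there. The lower bounds for Star and Hsd3b1 were 18.4-fold and 81.3-fold. With its 2 probes averaged, the log2 difference of Star as read was 6.63 in place of 8.10, and -6.25 in place of -7.04 in the pair labelled uterus. Hsd17b7 was 1.04-fold higher and did not reach the threshold. These 2 arrays had oocyte and granulosa markers on one side and brain markers on the other (oocyte sums of 24846 and 1325).

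In the pair labelled ovary, the members did not differ in this way. On “SHT ovary”, Akr1c18 was 1.997-fold higher than on “mock ovary” relative to the median gene, which stood at 0.13 (786 against 360.3). It was 1 of 2 members above the floor, and none was lower, against backgrounds of 25.4% higher and 21.2% lower among 10692 genes. The call was lost with each array centred on its median, with a 3-fold threshold and with a floor at the 75th percentile. Hsd17b7 was 1.32-fold lower. Star, Hsd3b1, Hsd17b1, Akr1cl and Srd5a1 were inside background on both arrays, so no fold is given.

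In the pair labelled uterus, the directions ran opposite to those in the pair labelled brain. All 7 members passed the floor, and 6 were lower by 2-fold or more on “SHT uterus” than on “mock uterus” and 0 were higher, against backgrounds of 8.49% lower and 12.9% higher among 10765 genes. Hsd17b1 was at least 59.4-fold lower, Akr1cl at least 79.7-fold and Akr1c18 143-fold, the last above background on both arrays. The Akr1c18 reading on “SHT uterus”, 347, lay close to the limit of 318 there. Hsd17b7 was 4.73-fold lower, again with both arrays above background. Srd5a1, with 217 on the mock array and 289 on the SHT array, was inside background on both. The oocyte marker sum was 1110 on “SHT uterus” and 44739.8 on “mock uterus”, and the squamous sum 224195 and 1861. Opposite directions in brain and uterus were not tested as an interaction, since each group held 1 array.

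**Figure D2:**
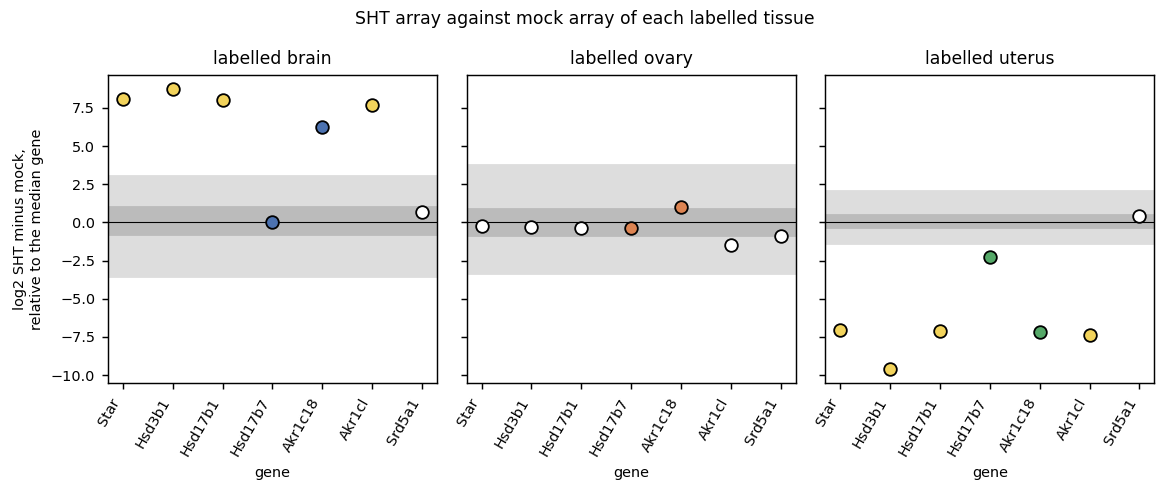
Log2 difference of SHT minus mock in each labelled tissue, relative to the median gene, for the 7 measured genes. Dark and light grey bands hold the 25th to 75th and the 5th to 95th percentile of all genes above the level floor. Filled coloured points are measured on both arrays, yellow points have the dimmer array inside background, and white points have both inside it. The difference of Hsd17b7 is 0.05 in the pair labelled brain and -2.24 in the pair labelled uterus.

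The average SHT minus mock difference over the 3 labelled tissues was the one contrast with several arrays on each side. By their tissue markers these arrays were not replicates, since the mock and SHT arrays of each labelled pair carried different markers. In limma, with labelled tissue as a block, 0 of 10763 genes passed an adjusted p of 0.05 (0%), and 4 had an unadjusted p below it. None of the 6 members in the fit passed, and Srd5a1 lay below its floor. Hsd17b7 had the narrowest interval, a log2 difference of -0.86 (SE 0.62, 95% interval -2.59 to 0.86, adjusted p = 0.99996 in limma). It stood at -0.17 without the pair labelled uterus and -1.26 without the pair labelled brain. Hsd3b1 had -0.38 (SE 3.78, 95% interval -10.93 to 10.17), which became 4.25 and -4.89 without those pairs. The pairs labelled brain and uterus pulled in opposite directions for 5 members, and how many of all genes did so was not counted. The fit measures the spread between labelled tissues, not between mice. Its estimates and intervals include the marker differences within the labelled pairs, so an SHT effect apart from these was not tested.

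The other genes of the pathway were described from lists written with earlier results of these data known. Among redox partners, which feed electrons to the P450 enzymes, Fdx1 (ferredoxin, the partner of Cyp11a1) read 25575 and 34337 on “SHT brain” and “mock uterus”. It read 1281, 4351, 1574 and 3291 on “mock brain”, “mock ovary”, “SHT ovary” and “SHT uterus”. H6pd, which supplies NADPH in the endoplasmic reticulum, read 2357 and 2689.6 on the first 2 arrays, but also 2597 on “SHT uterus”. Por, the partner of microsomal P450 enzymes, read between 246 and 555 on all 6. All 3 measured redox genes passed the floor. Of these, in the pair labelled brain, 2 were higher and 0 lower (22% and 24% of all genes), in the pair labelled ovary 0 and 2 (25.4% and 21.2%), and in the pair labelled uterus 0 and 1 (12.9% and 8.49%).

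Regulators of steroid synthesis included genes with the same 2 high arrays. Nr5a1, the steroidogenic factor, read 2174 and 3495 on “SHT brain” and “mock uterus” and 29.3 to 40.8 on the other 4. Nr5a2, its relative in granulosa and luteal cells, read 1327 and 2981 there and 29.4 to 39.4 elsewhere. Both were named after their values were seen. Foxl2, a granulosa factor, read 12312 and 21556 there, with 3641 and 3942 on “mock ovary” and “SHT uterus” and 249.8 and 246 on “mock brain” and “SHT ovary”. Cebpb read 8326 and 8569 there, but also 9225 and 10735 on “mock ovary” and “SHT uterus”. Gata6 read 3564 and 6846 on the 2 arrays and between 147 and 1348 elsewhere. Nr4a1, an immediate early gene, ran differently, with 11849 and 9089 on “mock brain” and “SHT ovary” and 1898.5 to 4471 on the others. Of 12 measured regulators, 10 passed the floor in the pair labelled brain, with 6 higher and 1 lower, where 22% and 24% of all genes were (list median 2.38, log2, relative to the median gene). In the pair labelled ovary 2 of 7 were higher and 3 lower, against 25.4% and 21.2% of all genes. For the pair labelled uterus, 0 of 10 were higher and 7 lower, against 12.9% and 8.49% (list median -2.15).

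Among genes of cholesterol delivery, Scarb1, the receptor that takes up cholesterol from high-density lipoprotein, read 9625 and 23019 on “SHT brain” and “mock uterus” and 547 to 1299 elsewhere. Tspo, a protein of the outer mitochondrial membrane, read 4985 and 5268 there, but also 6285 and 4259.7 on “mock ovary” and “SHT uterus”. Npc2 and Abca1, of lysosomal and cellular cholesterol export, were highest on “SHT uterus”, at 16981 and 9579. All 10 measured genes passed the floor, and in the pair labelled brain 6 were higher and 1 lower (22% and 24% of all genes). The counts of 1 and 3 in the pair labelled ovary (25.4% and 21.2%) and 0 and 2 in the pair labelled uterus (12.9% and 8.49%) lay nearer to the shares over all genes.

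Other steroid enzymes were less sharply placed. Of 22 measured, 13 passed the floor in the pair labelled brain, with 7 higher and 0 lower (22% and 24% of all genes, list median 1.34). For the pair labelled ovary, 0 of 11 were higher and 4 lower (25.4% and 21.2%), and in the pair labelled uterus 0 of 14 and 3 (12.9% and 8.49%, list median -0.18). This list includes Hsd3b1 itself. Hsd17b10, a mitochondrial enzyme, read 14499 and 19351 on “SHT brain” and “mock uterus” and 5002 to 8286 elsewhere. Hsd17b12 read 4633 to 7493 and Hsd3b7, of bile acid synthesis, 1580.4 to 7993 over the 6 arrays. Among close relatives of Akr1c18, named after their values were seen, Akr1c13 read 1100.0 and 1307 on “SHT brain” and “mock uterus” and 17.0 to 247 elsewhere. Akr1c14 read 4065 and 4864 there, with 3928 and 3121 on “mock ovary” and “SHT uterus”. The adrenal list had 2 named probes. Mc2r, the corticotropin receptor, was inside background on every array, at 21.8 to 59.6. Mrap, its accessory protein, which fat also makes, read 3740.4 and 10159 on “SHT brain” and “mock uterus”. It read 400 and 595 on “mock ovary” and “SHT uterus”, and 45.7 on each of “mock brain” and “SHT ovary”. The 4 fat markers summed to 44087 and 71334 on “SHT brain” and “mock uterus”. They summed to 30982 and 39778 on “mock ovary” and “SHT uterus” and to at most 755 elsewhere. The part of fat in the Mrap level was not tested.

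Among the receptors of these hormones, Pgr and Esr1 were highest on other arrays than the enzymes. Pgr, the progesterone receptor, was highest on “mock ovary” and “SHT uterus”, at 19510.1 and 13506. It read 4452 and 1844 on “SHT brain” and “mock uterus”. Esr1, the oestrogen receptor alpha, read 6286 and 10351 on the first pair of arrays and 4327 and 1391 on the second. Esr2, the receptor beta of granulosa cells, ran the other way, with 198 and 679 on the first pair and 2316 and 2741 on the second. Nr3c1, the glucocorticoid receptor, read between 1023 and 2115 on all 6 arrays. All 6 measured receptors passed the floor, and in the pair labelled brain 2 were higher and 2 lower (22% and 24% of all genes), in the pair labelled ovary 0 and 2 (25.4% and 21.2%), and in the pair labelled uterus 2 and 1 (12.9% and 8.49%).

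**Figure D3:**
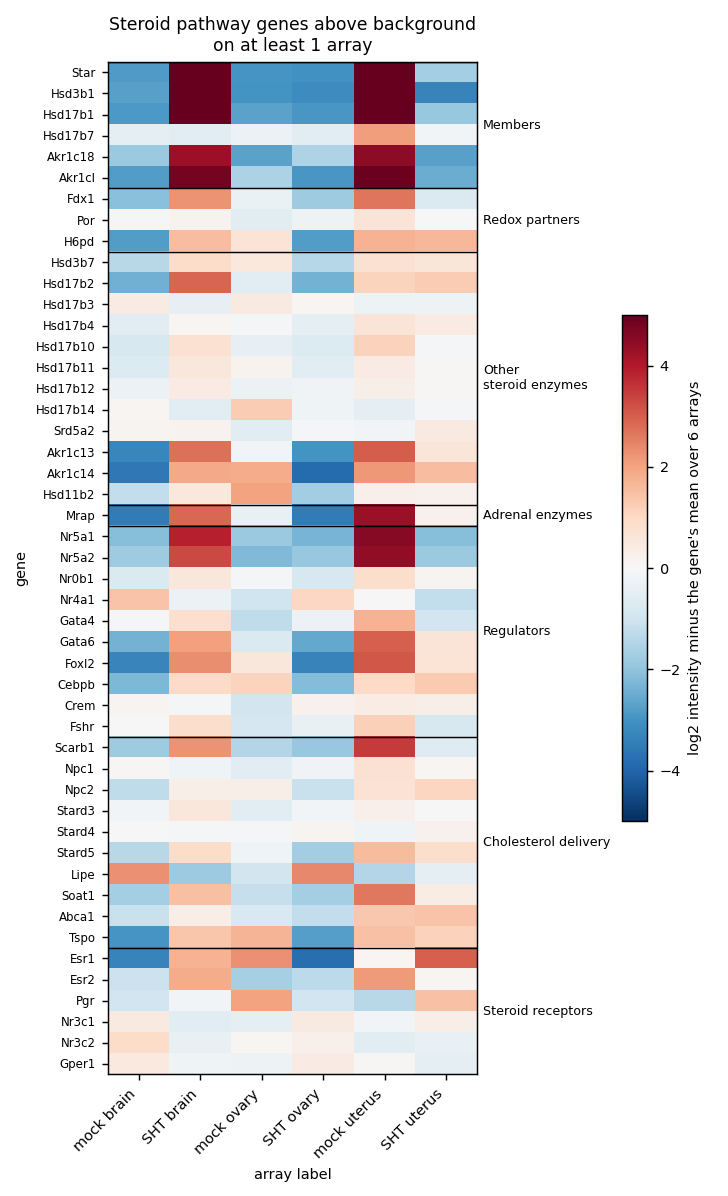
Log2 intensity minus the gene's mean over the 6 arrays, for measured genes of the pathway above background on at least 1 array. Columns are arrays by label, rows are genes by list, and colours are capped at 5 log2 units. Star, Hsd3b1, Hsd17b1, Akr1c18 and Akr1cl, with Nr5a1, Nr5a2, Fdx1 and Scarb1, are red on “SHT brain” and “mock uterus”, while Pgr and Esr1 are reddest on “mock ovary” or “SHT uterus”.

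“SHT brain” and “mock uterus” were then set side by side, a comparison added after the levels were seen and outside the study's design. Hsd17b7 was 5.38-fold higher on “mock uterus” relative to the median gene (12272 against 1923), and 7 of 10762 genes had a larger difference in that direction. It was 1 of the 7 members past 2-fold higher and 0 were lower, against backgrounds of 3.72% and 3.96%. The other 6 were within 1.09-fold or inside background, with Star taken from its brighter probe. The ratio of “mock uterus” to “SHT brain” as read was 1.14 for that probe and 1.53 for the dimmer one. With the 2 probes averaged, the log2 difference of Star relative to the median gene was 0.16. Star, Hsd3b1, Hsd17b1, Akr1c18 and Akr1cl had log2 differences of -0.06, 0.11, -0.06, -0.08 and -0.13 relative to a median gene at 0.25. Akr1c18 and Hsd3b1 read between 40566 and 51780 on these arrays, not far below the top of scale, and whether their ratios were compressed was not tested.

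Several genes around the enzymes differed more between these 2 arrays than the members other than Hsd17b7 did. Scarb1 was higher on “mock uterus” by 1.01 on the log2 scale relative to the median gene, Nr5a2 by 0.92, Soat1, which esterifies cholesterol for storage, by 0.89, and Mrap by 1.19. Soat1 and Hsd17b2 were named after their values were seen. Hsd17b2, which oxidises oestradiol to oestrone, ran the other way, with 1553 on “SHT brain” and 452 on “mock uterus” (log2 difference -2.03). Esr1 and Pgr were also lower on “mock uterus”, with log2 differences of -1.88 and -1.52. Beside these values, the oocyte markers summed to 24846 on “SHT brain” and 44739.8 on “mock uterus”. The uterus markers, a list that includes Esr1 itself, summed to 25211 and 3360. Prap1 alone read 18288 and 1109 of these uterus sums. The part of these markers in the differences was not tested.

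Because Hsd17b7 also acts in cholesterol synthesis, the enzymes of that pathway were listed after its value was seen. Of 20, 16 had a named probe and 15 were above the floor, 2 of them at least 2-fold higher on “mock uterus” and 0 lower, where 3.72% and 3.96% of all genes were. One of these is Hsd17b7, which prompted the list, and the other is Dhcr7. The list median was 0.18 on the log2 scale relative to the median gene. The genes named from this list were chosen after their values were seen. Dhcr7, the last enzyme of one branch, read 2654 on “mock uterus” against 985 on “SHT brain”. Lss, which closes the sterol rings, read 1795 against 910.1. Msmo1, of the same demethylation steps as Hsd17b7, read 9143 against 6789, and Ebp read 12113 against 12848. Between these 2 arrays, the difference of Hsd17b7 (2.43) was thus larger than that of Dhcr7 (1.18). It was also larger than that of every other gene of the list above the floor. In the pair labelled uterus, 0 of 14 genes of the list were higher and 6 lower (12.9% and 8.49% of all genes, list median -0.68). There Dhcr7 stood at -2.27 and Hsd17b7 at -2.24. Counts were 5 and 0 in the pair labelled brain (22% and 24%), and 0 and 6 in that labelled ovary (25.4% and 21.2%). Of the 16 measured genes, 10 were highest on “mock uterus”.

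**Figure D4:**
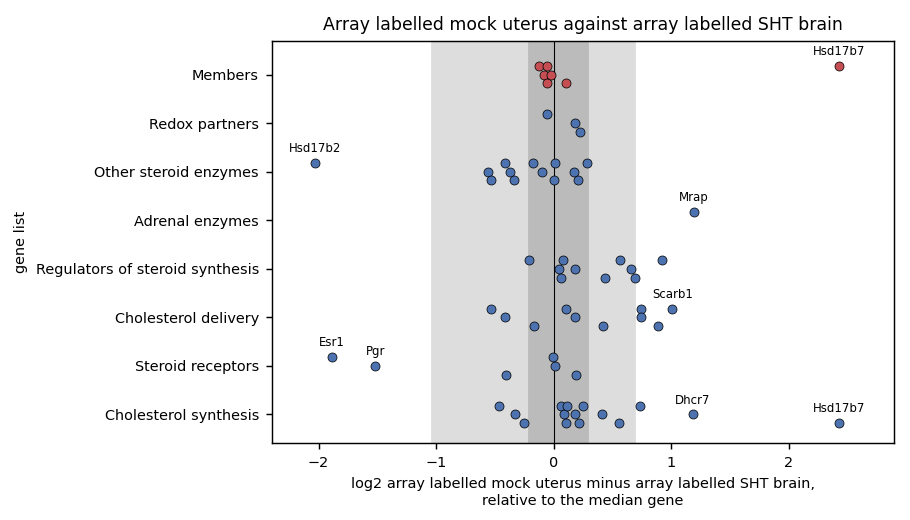
Log2 difference of “mock uterus” minus “SHT brain”, relative to the median gene, for the members (red) and the other lists (blue); vertical position within a list has no meaning. Dark and light grey bands hold the 25th to 75th and the 5th to 95th percentile of all genes above the level floor. Hsd17b7 lies at 2.43, the other members lie between -0.13 and 0.11, and Hsd17b2 lies at -2.03.

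The genes most like Star across the 6 arrays were found among 4849 genes above background on their highest array and with a range of at least 2 log2 units. Hsd17b1 came first (Pearson r = 0.9993 on log2 intensity over 6 arrays). Amhr2, the receptor of anti-Müllerian hormone, followed at 0.997, with 3199 and 5166 on “SHT brain” and “mock uterus” and 17.2 to 26.8 elsewhere. Hoxc9, a homeobox gene, was at 0.996, with 339 and 566 there and 8.97 to 21.4 elsewhere. The 6 points fall into 2 high and 4 low arrays, so r describes mainly that split, and 29 genes exceeded 0.99. For Hsd17b7, taken after its value was seen, the nearest were Cutal (0.986), with 4739 on “mock uterus” and 931 to 1331 elsewhere, Slc12a8 (0.981) and Bhmt (0.955). These rest on 1 high array.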

How the data were processed

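The arrays were labelled with Cy5 per the labels' protocols, and limma is named in the submitters' processing notes without a version or role. The deposited table holds linear intensity for 26423 probes. For background correction, scaling and probe filters, the sources used here give nothing. Groups came from the labels alone, with 1 array in each. The members, lists and rules were chosen with earlier results of these data known. 1 list and 1 comparison were added after the values were seen.

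Of the probes, 20377 carried 1 gene symbol and 6046 did not. Among the latter, probes with no symbol and with several were not counted apart. Symbols were updated through RefSeq for GRCm38.p6 (18213 current, 2126 synonyms, 38 kept). No probe coordinates are given, since no source used here gives their build. Low intensities were set to the array's 5th percentile above 0 (5.66 to 6.66), then log2 was taken, without scaling between arrays. The probe with the highest mean stood for a gene. A gene was counted at a 2-fold difference in deposited values with a pair mean above the median of all probes, and folds are printed relative to the median over all genes. Named genes were all members with a probe, up to 4 of each planned list by highest level, and the 3 most like Star. Genes outside this rule are marked as named after their values were seen. The members Cyp11a1, Cyp17a1 and Cyp19a1, without a named probe, were left out of the step of genes most like a member.

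The average effect was fitted with limma 3.58.1 in R 4.3.3 (lmFit, eBayes with a trend, two-sided, Benjamini-Hochberg over 10763 genes) after a check on simulated data. Each simulated SHT array was built from the mock array of the same label, with noise taken from the closest pair of arrays. The check therefore covers how the fit runs, not labelled pairs whose tissue markers differ, as they did here. Alternatives were other scalings, probe averaging, level floors, a 3-fold threshold, other floors on low values, no trend, no block and each labelled tissue left out.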

Additional observations from a re-analysis of the deposited data

Results flagged for a closer look

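5 genes differed in opposite directions in the pairs labelled brain and uterus, each pair with 1 array per group, so the difference was not tested. How many of all genes did so was not counted. The values are log2 differences of SHT minus mock relative to the median gene, as read. For Star, Hsd3b1, Hsd17b1 and Akr1cl the dimmer array lay inside background in both pairs, so their sizes are not measured, and the folds are lower bounds (18.4 and 32.4 for Star, 81.3 and 161 for Hsd3b1, 33.6 and 59.4 for Hsd17b1, 47.3 and 79.7 for Akr1cl). Star stood at 8.10 in the pair labelled brain and -7.04 in the pair labelled uterus, and Hsd3b1 at 8.77 and -9.61. Hsd17b1 stood at 8.03 and -7.12, and Akr1cl at 7.71 and -7.37. Akr1c18 stood at 6.27 and -7.16, with 0.998 in the pair labelled ovary. In both pairs, 1 array carried the oocyte and granulosa markers and the other did not.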

How the results depend on the processing

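The members' calls in the pairs labelled brain (5 higher) and uterus (6 lower) stayed within 1.5 times of those counts under every alternative run, and no member called in a pair changed direction there. In the pair labelled ovary the single call, Akr1c18 higher, fell to 0 with each array centred on its median, with the floor at the 75th percentile and with a 3-fold threshold. Without a level floor, 1 member was lower there, both its arrays inside background. With a 3-fold threshold the share of genes past it was 28.8% in brain, 30.9% in ovary, 11.9% in uterus and 2.5% between the arrays labelled mock uterus and SHT brain, as fewer genes pass a higher fold. Raising values to each array's olfactory receptor 95th percentile lowered the differences of Star, Hsd3b1, Hsd17b1 and Akr1cl, since it lifts the dimmer array. In the pair labelled brain it took Akr1c18 from 6.27 to 7.12 and Hsd17b7 from 0.05 to 0.91. In the limma fit, leaving out a labelled pair turned the direction of 5 members, none of which was called with all pairs. How many of all genes turned was not counted. Without the pair labelled brain and without the pair labelled uterus, the average log2 difference was -3.57 and 3.95 for Star, -4.89 and 4.25 for Hsd3b1, -3.68 and 3.84 for Hsd17b1, -3.02 and 3.64 for Akr1c18, and -4.36 and 3.13 for Akr1cl. That fit called 0 genes under each alternative, with 3 to 461 genes at an unadjusted p under 0.05 and the most without the pair labelled ovary. That fit pairs mock with SHT by labelled tissue, and without the block it also called 0. Signal inside background on the dimmer array limits 4 of the 7 measured members to lower bounds in brain and uterus.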

Other observations

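Probes without a single gene symbol were outside the comparisons. Of 6046, 47 (0.777%) were above background on the arrays labelled SHT brain and mock uterus and on no other, and 2 of these read at least 5000 on both. Among named genes, 377 of 17742 had that pattern. Which genes these 6046 probes measure was not examined here.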
